A study of Mus musculus with 70 samples.

Results

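The genes that encode the receptors for glutamate and for γ-aminobutyric acid (GABA) were followed in mouse hippocampus across time of sacrifice, APP23 genotype and feeding schedule. These receptors were chosen with earlier results of these data known. Within that choice genes were taken by symbol, as every listed gene named as an AMPA, NMDA, kainate, delta or metabotropic glutamate receptor or as a GABA-A or GABA-B receptor. The rule found 42 of the 14260 listed genes. Of these, 36 are described here, and every count and median below is over them. They include 34 genes of a receptor or a receptor subunit: 4 AMPA, 6 NMDA, 5 kainate, 1 delta and 6 metabotropic glutamate receptor genes, 10 GABA-A subunit genes and 2 GABA-B subunit genes. The other 2 rows are Grik2.1, a second row under the symbol Grik2 that matched no annotated gene, and Grin1os, an RNA antisense to Grin1. All 36 passed the filter on low values.

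The transgenic mice (TG) were APP23 animals of the strain B6.Cg-Tg(Thy1-APP)3Somm/J, in which the Thy1 promoter drives a human amyloid precursor protein with a familial Alzheimer mutation, mainly in neurons. Their non-transgenic littermates (NTG) served as controls. Under time-restricted feeding (TRF) food was present for 6 h a day, from Zeitgeber time (ZT) 15 to ZT21, and under ad libitum feeding (ALF) it was always present. There were 18 TG mice on TRF, 19 TG on ALF, 16 NTG on TRF and 16 NTG on ALF, or 69 mice in 70 libraries. All were singly housed under a light-dark cycle with lights on at ZT0 and lights off at ZT12. The labels put the start of TRF at an age between 6 and 9 months and sacrifice between 10 and 13 months, with 25 mice killed at lights on (ZT0), 11 at ZT6, 23 at lights off (ZT12) and 10 at ZT18. Some animals had been through constant darkness and a shifted light cycle earlier, and the labels do not say which. They do not give the sex of a sample either.

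Glutamate opens AMPA, NMDA and kainate receptors, which are tetrameric ion channels. AMPA receptors carry most of the fast excitatory current, NMDA receptors admit calcium when binding of glutamate meets depolarization and are required for many forms of synaptic plasticity, and kainate receptors shape transmission and release. Metabotropic glutamate receptors act through G proteins. GABA-A receptors are pentameric chloride channels that give fast inhibition, at synapses where they hold a γ subunit and outside synapses where they hold δ, and many α5 receptors also lie outside synapses. GABA-B receptors are obligate dimers of GABA-B1 and GABA-B2 that act through G proteins.

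Deposited values are read counts divided by a factor for each library, called normalized counts here. Depth over the listed genes, if the step between values in a library is 1 read, was 27.9 to 47.1 M reads a library (median 37.2 M). Thy1, whose promoter the transgene carries, had 101986 to 171318 normalized counts in TG mice, against 14727 to 29068 in NTG mice, with no overlap. The marker lists of dentate gyrus (9 genes), CA1 (6) and CA2 and CA3 (8) were present in every library, as were those of thalamus (6) and neocortex (6). In 5 libraries the mean correlation with the others was lowest, and 4 of the 5 were ALF mice at ZT0 (2 TG and 2 NTG) and the other a TG mouse on TRF at ZT12. Choroid plexus markers were positive in 15 of 15 genes in TG against NTG on ALF (median log2 difference 1.75) and negative in 15 of 15 in TRF against ALF in TG (−1.42), and the sum of the list ran from 7166 to 331794 across mice. These markers were positive in 0 of 15 genes in ZT12 against ZT0 (median −0.58). In each of these comparisons 0 of the 15 genes passed the threshold. Taking that list's level into the model changed the number of receptor genes past the threshold by no more than 1.5 times in any comparison.

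Per kilobase of exon, Gria1, which encodes GluA1, had the highest level of the 34 receptor genes, with a median of 6037 normalized counts per kb over 69 mice (lowest 5090, highest 9066). The AMPA subunit genes followed the order Gria1, Gria2, Gria3 and Gria4 in 69 of 69 mice, with medians of 2321 for Gria2, whose edited subunit makes the channel impermeable to calcium, 886 for Gria3 and 518 for Gria4. The distance of Gria1 from Gria2 rests on their annotated exons, 6.04 kb for Gria1 and 15.5 kb for Gria2. Without that division the medians were 36484 normalized counts for Gria1 and 36094 for Gria2. Their ranges then overlapped (30760 to 54789 and 25051 to 46289), and Gria2 was the higher in some mice.

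Among NMDA subunits, Grin1, the gene of the obligatory GluN1, was highest per kb, with a median of 1229 (lowest 956, highest 1624). Grin2c, whose GluN2C is made by astrocytes and some interneurons in the adult forebrain, came next at 366 per kb, above Grin2b in 69 of 69 mice. Grin2b and Grin2a, which encode the main GluN2 subunits of hippocampal pyramidal cells, had medians of 95.3 and 66.8 per kb. Their annotated exons sum to 24.8 kb for Grin2b and 17.9 kb for Grin2a, against 5.04 kb for Grin2c, so the order per kb rests on those lengths. Without that division Grin2b had a median of 2367 normalized counts and Grin2c of 1845. The lowest members, Grin2a, Grin2d and Grin3a, kept no fixed order: Grin2a was above Grin2d in 37 of 69 mice, and Grin2d above Grin3a in 36.

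Grik5, the gene of the kainate subunit GluK5, led its family at 1516 per kb, and Grik1, which encodes GluK1, was lowest at 77.0. Grik3 and Grik4 lay together, at 280 and 279 per kb, with Grik3 higher in 39 of 69 mice. Grid1, which encodes the delta receptor GluD1, had 355 per kb. Grm5, the gene of mGluR5, was the highest metabotropic receptor gene at 1226 per kb, followed by Grm3 at 623, which astrocytes express strongly. Grm8 was lowest, at 51.6. Per kb, Grm3 was below Grm5 in 69 of 69 mice, and Grm2 was above Grm7 in 52. Without division by exon length Grm3 had a median of 1900 normalized counts, against 2087 for Grm2 and 2099 for Grm7. Grm4 was then lowest, at 373, against 510 for Grm8.

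Among the GABA-A subunit genes described, Gabra5 had the highest level, with a median of 1982 per kb, followed by Gabrb2 at 1879. The order of that pair per kb was not fixed, since Gabra5 was above Gabrb2 in 50 of 69 mice. It also rests on exon length, 2.97 kb for Gabra5 and 6.36 kb for Gabrb2. Without that division the medians were 5896 normalized counts for Gabra5 and 11952 for Gabrb2. Gabrr2, which encodes the ρ2 subunit best known from the retina, had 27.1 per kb and Gabrg3 had 14.5, the lowest of these subunit genes per kb. Without the division Gabrg3 was above Gabrr2, with medians of 172.7 and 57.0 normalized counts. Gabbr1, at 2749 per kb, was above Gabbr2, at 1031, in 69 of 69 mice.

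**Figure D1:**
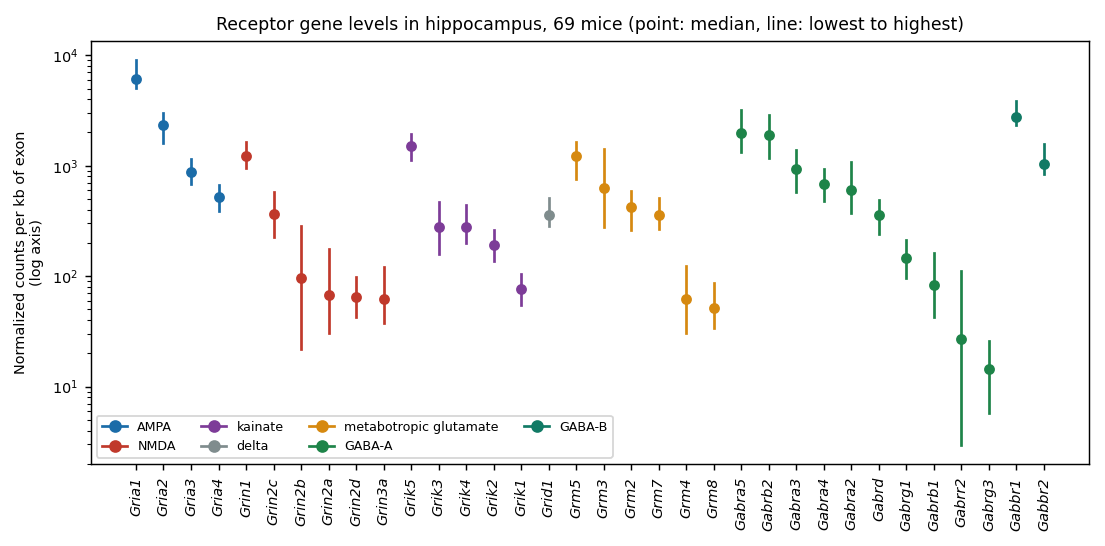
Normalized counts per kb of annotated exon for 34 receptor genes (log axis), grouped by family, with the median over 69 mice as a point and a line from the lowest to the highest mouse. Gria1 is highest at a median of 6037 per kb, and the long lines of Grin2b and Gabrr2 mark a wide spread between mice.

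The spread between mice differed widely among the receptor genes. Gabrr2 ran from 6.22 to 234.2 normalized counts, a 37.6-fold range, and Grin2b from 548 to 7078, a 12.9-fold range. Grin2a ranged 5.75-fold. After group and time were fitted, the residual SD was 0.76 on the log2 scale for Grin2b, 0.70 for Gabrr2 and 0.49 for Grin2a, against a median of 0.21 over all listed genes. The smallest residual SDs were those of Gabbr1 at 0.14, Gria3 at 0.14 and Grin1 at 0.15.

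Grin2b and Grin2a were high in the same libraries as other long transcripts. For each library, the mean log2 level of 2593 genes with over 8000 exon bases was taken relative to that of 1643 genes with under 2000. This difference had a median of −0.18 in the 10 mice of lowest Grin2b (range −0.58 to 0.02) and of 0.26 in the 10 of highest Grin2b (range 0.07 to 1.06). With it as a covariate, the residual SD of Grin2b fell to 0.57 and that of Grin2a to 0.29, from 0.76 and 0.49 without it, while that of Gabrr2 was 0.67 with it and 0.70 without it. The total of normalized counts in a library also moved with Grin2b, with a median of 35.6 M in the 10 mice of lowest Grin2b and 39.1 M in the 10 of highest. With that total as the covariate instead, the residual SD was 0.53 for Grin2b and 0.33 for Grin2a. A long transcript did not always spread widely: Gria2, with 15.5 kb of exon, had a 1.85-fold range and Grik2, with 13.2 kb, a 1.92-fold range, close to the 1.73-fold range of Grik5, with 5.17 kb. The residual SD of Gria2 was 0.17 with the length covariate and without it. The length of transcripts captured in a library, its total, the number and state of the cells and the RNA input were not told apart, and their part in the spread was not tested.

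**Figure D2:**
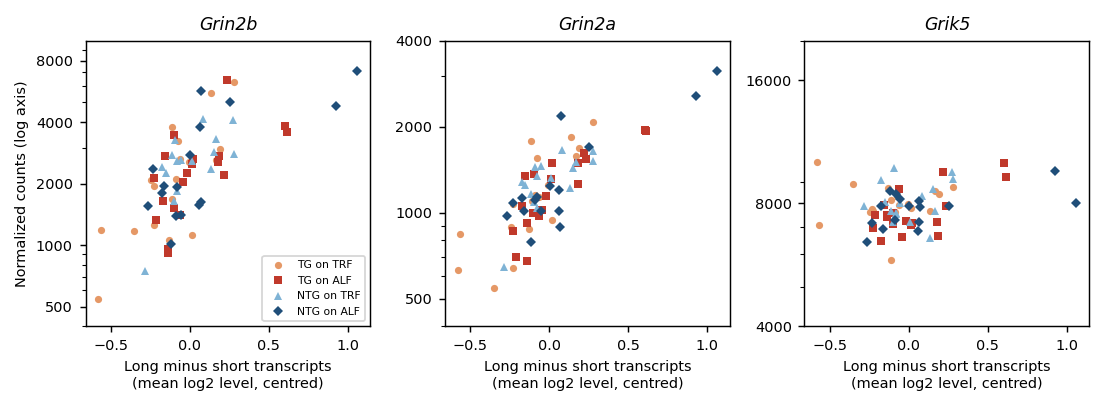
Normalized counts of Grin2b, Grin2a and Grik5 in each of 69 mice (log axes) against the library's mean log2 level of long transcripts minus short ones, centred. Grin2b spans 548 to 7078 and Grin2a 545 to 3137, both low at the left, whereas Grik5 stays between 5828 and 10088.

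Time of sacrifice was tested over the 4 times with limma, adjusting p over all 14260 genes by the Benjamini-Hochberg method, with an adjusted p under 0.05 as the threshold. It passed for 12 of the 36 rows (33.3%), against 35.6% of all genes, so the share was near that of the transcriptome. The 12 were Gabrr2, Gabra4, Grm3, Gabra5, Grin2c, Grin3a, Grik1, Gabrd, Gabra2, Grid1, Gabbr1 and Grin1. By family these were 5 of 10 GABA-A, 3 of 6 NMDA, 1 of 6 metabotropic, 1 of 5 kainate, 1 of 2 GABA-B and 0 of 4 AMPA genes, besides Grid1. The fitted mean was highest at ZT0 in 5 of the 12, at ZT6 in 3 and at ZT12 in 4, and it was lowest at ZT18 in 9. Among the 5073 genes of the whole table that passed, 1176 were lowest at ZT18. The median distance from the lowest to the highest time was 0.26 on the log2 scale for the 12, against 0.27 for the 5073. The calls of 3 genes ended when a single mouse was left out. These were Gabbr1 without TG_ALF_5 (adjusted p = 0.0523, limma), Grid1 without NTG_TRF_313 (adjusted p = 0.0605, limma) and Grin1 without TG_ALF_109, NTG_TRF_313 or NTG_TRF_312 (adjusted p up to 0.059, limma), where a mouse is named by genotype, feeding and animal number.

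Between the times of lights off and lights on, 3 receptor genes were higher at ZT12 than at ZT0 and 6 were lower. Over all listed genes 14.4% were higher and 13.6% lower, against 8.33% and 16.7% of the 36 rows, which does not set the receptors apart. Leaving out the mouse NTG_TRF_116 raised the lower count to 10, and leaving out some other single mice reduced it. Of the 6 lower genes only Grin2c still passed without the 5 libraries of lowest correlation or with the transcript length covariate. The median log2 difference of the 36 was −0.08, against 0.003 over all genes, and 23 were negative. The size of each change is given as the difference of log2 means with its standard error.

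Among the metabotropic genes described, Grm3 and Grm5 were lower at ZT12. Bulk RNA cannot tell fewer cells of a type from less RNA per cell. Grm3, which encodes the Gi-coupled mGluR3, had 848 to 2415 normalized counts at ZT12 (median 1900), against 1333 to 4354 at ZT0 (median 2052), a log2 difference of −0.31 ± 0.09 (adjusted p = 0.00572, limma). Grm5 had 7735 to 14790 at ZT12 (median 12264), against 10408 to 16915 at ZT0 (median 13289), a log2 difference of −0.15 ± 0.05 (adjusted p = 0.0236, limma). The groups overlapped for both genes, with 15 and 21 of 23 ZT12 mice below the ZT0 median. Without the 5 libraries of lowest correlation neither passed, at −0.15 for Grm3 and −0.08 for Grm5. The call of Grm5 also ended without the mouse TG_TRF_104 alone (adjusted p = 0.0537, limma) and with the level of dentate gyrus markers as a covariate. Grm2, Grm4, Grm7 and Grm8 did not pass, with log2 differences of 0.06, −0.22, −0.10 and −0.07.

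In the NMDA family, Grin2c and Grin3a were lower at ZT12, and Grin2c had the smallest p of the 6 lower genes. Grin2c had 1147 to 2582 normalized counts at ZT12 (median 1668), against 1577 to 2932 at ZT0 (median 1956), and 9 of 23 ZT12 mice were below every ZT0 mouse. The log2 difference was −0.23 ± 0.06 (adjusted p = 0.00107, limma). Means over the day were 2023 ± 300 at ZT0, then 1718 ± 279 at ZT6 and 1735 ± 341 at ZT12, and 1945 ± 239 at ZT18 (SD, n = 25, 11, 23 and 10), so the gene was low at ZT6 and ZT12. Grin3a, whose GluN3A lowers calcium entry through the receptor, had 486 to 958 at ZT12 (median 761), against 465 to 1484 at ZT0 (median 860), a log2 difference of −0.27 ± 0.08 (adjusted p = 0.00707, limma). No ZT12 mouse lay below all ZT0 mice for Grin3a, and the call ended without the 5 libraries of lowest correlation (−0.15). Astrocyte markers, the cell type of much Grin2c and Grm3, were lower past the threshold in 3 of 12, or 25% against 13.6% of all genes (Sox9 −0.46, Aqp4 −0.24 and Slc1a2 −0.17) and higher in 1 (Fgfr3 0.13), with a median of −0.06 and sums of 167904 to 257722 at ZT12, against 173722 to 305166 at ZT0. Endothelial markers were lower in 7 of 9 and higher in 2 (median −0.35), with sums of 3990 to 8390 at ZT12 (median 6901), against 4760 to 10370.5 at ZT0 (median 8487). Oligodendrocyte precursor markers were lower in 6 of 10 and higher in 2 (median −0.28), with sums of 10808 to 15406 at ZT12 (median 13417), against 13835 to 17667 at ZT0 (median 15332). Dentate gyrus markers were lower in 3 of 9 and higher in 0 (median −0.16). With their level as a covariate Grm5, Gabra2 and Gria1 no longer passed as lower, while Grin2c, Grm3 and Grin3a did. Beyond that, the part of these cell types in the receptor genes lower at ZT12 was not tested. Grin1 had 10462 to 14733 at ZT12 (median 12995), against 9450 to 15756 at ZT0 (median 11920), with a log2 difference of 0.07 ± 0.04 that did not pass (adjusted p = 0.223, limma). It passed with array weights and with the transcript length covariate. Grin2b had the lowest value of all, −0.47 ± 0.22, and did not pass (adjusted p = 0.0943, limma).

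Gria1 was the only AMPA gene past the threshold, and narrowly. It had 30760 to 45753 normalized counts at ZT12 (median 35784), against 32646 to 54789 at ZT0 (median 38520), a log2 difference of −0.12 ± 0.05 (adjusted p = 0.0477, limma). Leaving out any of 30 single mice ended that call. It also ended with array weights, without the 5 libraries of lowest correlation and with mice of ZT0 and ZT12 alone. The dentate gyrus covariate and the transcript length covariate ended it too. Gria2 had a log2 difference of 0.05 ± 0.05, and Gria3 and Gria4 had 0.01 each. None of the 5 kainate genes passed, with values from −0.13 for Grik3 to 0.02 for Grik5. Grid1 passed over the 4 times but not between ZT12 and ZT0, where it had 0.01.

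Among the GABA-A genes, Gabrr2, Gabra5 and Gabra4 were the 3 receptor genes higher at ZT12. Their promoter windows are printed for that reason, from RefSeq on GRCm38.p6, 250 bases before to 50 after the RefSeq start and read along the gene's own strand: Gabrr2 from chr4:33062862-33063161 (plus), Gabra5 from chr7:57510010-57510309 (minus) and Gabra4 from chr5:71658259-71658558 (minus). Capitals mark the D-box TTATGTAA, the site of the PAR bZIP factors of the circadian clock.
Gabrr2: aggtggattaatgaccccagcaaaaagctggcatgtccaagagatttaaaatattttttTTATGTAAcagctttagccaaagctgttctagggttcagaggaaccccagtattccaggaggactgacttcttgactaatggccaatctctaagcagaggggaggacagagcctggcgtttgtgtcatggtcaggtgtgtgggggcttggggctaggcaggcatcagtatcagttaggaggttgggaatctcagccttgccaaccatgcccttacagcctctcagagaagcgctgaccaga
Gabra5: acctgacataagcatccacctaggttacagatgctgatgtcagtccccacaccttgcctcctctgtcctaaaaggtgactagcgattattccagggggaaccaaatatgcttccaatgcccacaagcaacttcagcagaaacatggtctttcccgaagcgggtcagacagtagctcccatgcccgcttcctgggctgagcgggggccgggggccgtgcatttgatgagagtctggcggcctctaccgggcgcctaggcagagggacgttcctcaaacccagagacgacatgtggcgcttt
Gabra4: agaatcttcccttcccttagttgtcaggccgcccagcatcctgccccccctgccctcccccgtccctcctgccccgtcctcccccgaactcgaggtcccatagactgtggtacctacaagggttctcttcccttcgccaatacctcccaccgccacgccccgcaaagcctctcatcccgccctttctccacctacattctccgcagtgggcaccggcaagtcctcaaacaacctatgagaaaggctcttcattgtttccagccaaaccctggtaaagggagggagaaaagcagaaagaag
Of the 36 rows, 25 had a RefSeq promoter window, 5 of them more than 1. Both strands were searched for the D-box, the E-box CACGTG of the clock activators, the cAMP element TGACGTCA and AGGTCA, the half-site shared by the ROR and REV-ERB receptors. No window held more than 1 kind of motif, so no motif overlapped another. The D-box was found in Gabrr2 alone, against 0.938% of 32851 windows in the table. CACGTG was found in Grin1, in 2 places, against 7.15% of windows. AGGTCA was found in Grin2c and in 1 of the 3 windows of Grm8, against 16.3%, and TGACGTCA in none, against 1.79%. A match of letters is a description and not a bound site.

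Gabrr2 showed the largest difference, though at a low level. It had 50.2 to 234.2 normalized counts at ZT12 (median 80.2), against 6.22 to 121.5 at ZT0 (median 38.1). All 23 ZT12 mice were above the ZT0 median and 3 were above every ZT0 mouse. The log2 difference was 1.20 ± 0.20 (adjusted p = 3.2e-06, limma). Means over the day were 41.0 ± 26.04 at ZT0, then 57.2 ± 22.6 at ZT6 and 86.7 ± 41.5 at ZT12, and 71.9 ± 20.8 at ZT18.

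Gabra5, whose α5 subunit is enriched in hippocampus and gives much of the tonic inhibition of pyramidal cells, had 5263 to 9569 at ZT12 (median 6222), against 3978 to 7395 at ZT0 (median 5653). The log2 difference was 0.21 ± 0.06 (adjusted p = 0.00435, limma), and 19 of 23 ZT12 mice were above the ZT0 median. Its mean was highest at ZT6, at 6811 ± 1082 (n = 11). Gabra4, whose α4 subunit pairs with δ in dentate granule cells, had 3973 to 5453 at ZT12 (median 4464), against 3448 to 5172 at ZT0 (median 3995), with 22 of 23 ZT12 mice above the ZT0 median. The log2 difference was 0.15 ± 0.04 (adjusted p = 0.00664, limma). Gabrd, the gene of that δ subunit, had 0.06 ± 0.05 and did not pass. The exons of Gabra4 start within those of Gabrb1 on the other strand, Gabra5 overlaps the antisense gene Gm9962, and whether reads were counted by strand is not given in the sources used here, so the reads of such a pair cannot be told apart where the exons overlap.

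Gabra2 was the GABA-A gene lower at ZT12. It had 2851 to 6613 normalized counts at ZT12 (median 4565), against 3734 to 8204 at ZT0 (median 5227), a log2 difference of −0.21 ± 0.07 (adjusted p = 0.0202, limma), with 20 of 23 ZT12 mice below the ZT0 median. Without the 5 libraries of lowest correlation it was −0.14 and did not pass, and it did not pass with the dentate gyrus covariate. It lies in 1 cluster of chromosome 5 with Gabrg1, Gabra4 and Gabrb1, where Gabra4 was higher, Gabra2 lower, and Gabrg1 at −0.10 and Gabrb1 at −0.24 did not pass. Gabrg3, near Gabra5 on chromosome 7, had −0.11, and Gabrb2 on chromosome 11 had −0.13 ± 0.07, and neither passed. The GABA-B genes had −0.06 ± 0.04 for Gabbr1 and −0.11 ± 0.05 for Gabbr2, and neither passed (adjusted p = 0.242 and 0.0565, limma). Gabbr2 did pass as lower with the choroid plexus covariate and with the myelin covariate (adjusted p down to 0.0293, limma).

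**Figure D3:**
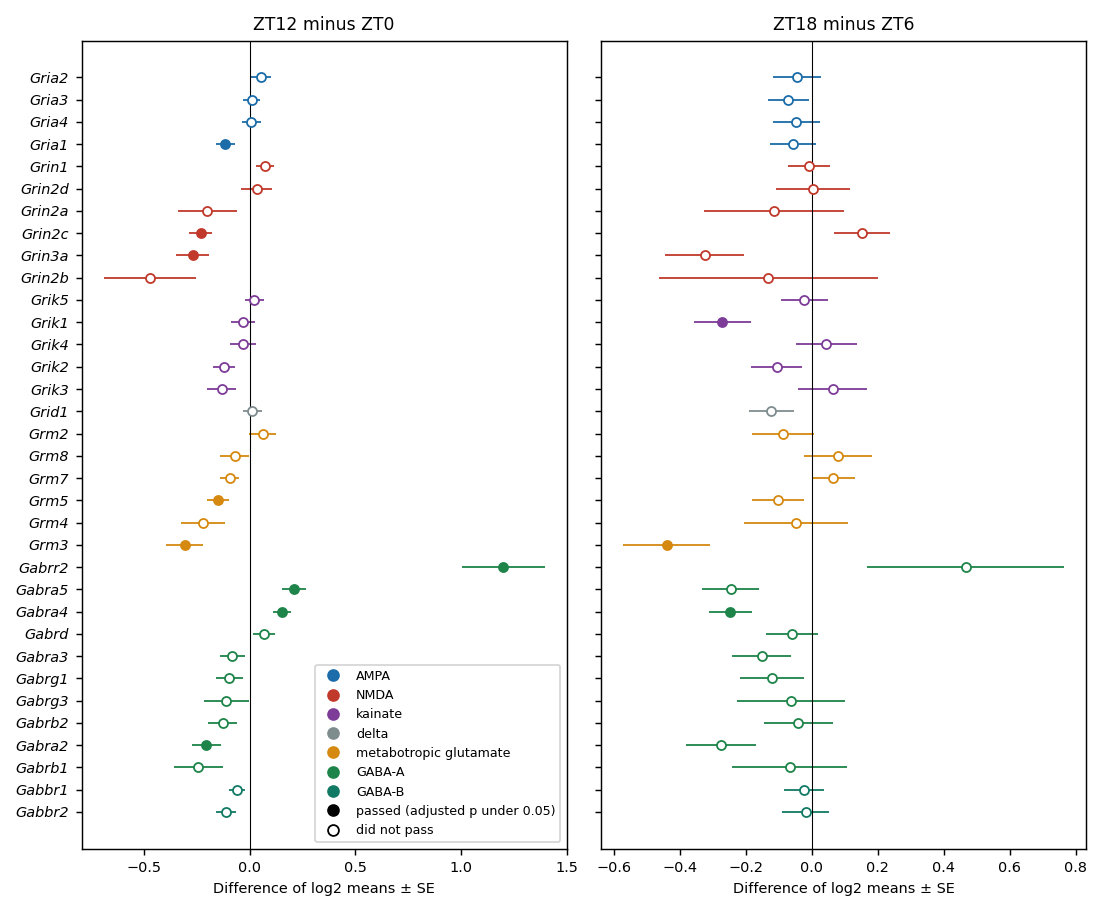
Difference of log2 means ± SE for 34 receptor genes, ZT12 minus ZT0 (left, 23 and 25 mice) and ZT18 minus ZT6 (right, 10 and 11 mice), coloured by family, with filled points past an adjusted p of 0.05. Gabrr2 stands out at 1.20 on the left and Grm3 is the lowest called gene on the right at −0.44.

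**Figure D4:**
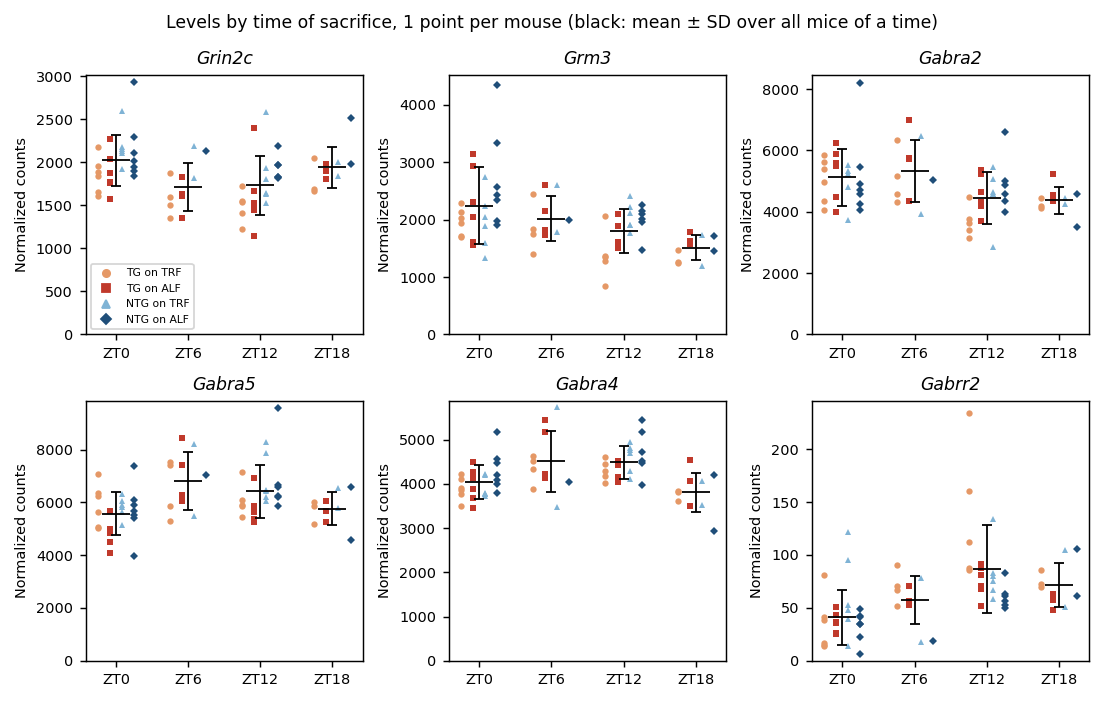
Normalized counts of 6 receptor genes in each of 69 mice by time of sacrifice, with groups by colour and shape and the mean ± SD over all mice of a time in black. Grin2c is low at ZT6 and ZT12, Grm3 is lowest at ZT18, and Gabrr2 is highest at ZT12.

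Long transcripts had a higher median level in the ZT0 libraries than in the ZT12 libraries, with overlapping ranges, and this was not tested. The mean log2 level of long transcripts minus short ones had a median of −0.06 at ZT12 (range −0.58 to 0.25), against 0.02 at ZT0 (range −0.28 to 1.06). With that difference as a covariate, a setting chosen after the data were seen, the 6 genes lower at ZT12 became 1, namely Grin2c at −0.20, while Grm3 had −0.14, Gabra2 −0.11, Grin3a −0.12, Grm5 −0.06 and Gria1 −0.05. Gabra5, at 0.21, Gabra4, at 0.20, and Gabrr2, at 1.04, stayed past the threshold in that model. Grin1, which had not passed, newly passed as higher at ZT12 in that model and with array weights. Over the alternatives its log2 difference was up to 0.11 and its adjusted p down to 0.036 (limma). Grin2c, Gabra5, Gabra4 and Gabrr2 passed in every alternative in which they were tested. Of the 5 libraries of lowest correlation, NTG_ALF_107, NTG_ALF_1, TG_ALF_5 and TG_ALF_16 had the highest values of long minus short transcripts (0.60 to 1.06). The other, TG_TRF_104, had the lowest (−0.58). The length covariate and the removal of those libraries are therefore not separate checks.

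Between ZT18 and ZT6, with 10 and 11 mice, 3 receptor genes were lower and 0 higher (limma, and 0 higher by voom). Over all listed genes 3.77% were lower and 4.27% higher, and the 3 make 8.33% of the rows. In the higher direction 0 of the 36 had an unadjusted p under 0.05 (limma), against 10.5% of all genes. Grm3 had 1201 to 1792 normalized counts at ZT18 (median 1523), against 1404 to 2605 at ZT6 (median 1846), a log2 difference of −0.44 ± 0.13 (adjusted p = 0.0252, limma). Gabra4 had 2922 to 4541 at ZT18 (median 3823), against 3470 to 5734 at ZT6 (median 4344), a log2 difference of −0.25 ± 0.07 (adjusted p = 0.00994, limma). Grik1 had 398 to 487 at ZT18 (median 436), against 430 to 709 at ZT6 (median 518), a log2 difference of −0.27 ± 0.09 (adjusted p = 0.0371, limma). Groups overlapped for all 3 genes. Leaving out a single mouse ended the call of Grm3 for any of 4 mice and of Grik1 for any of 12, and of Gabra4 for none. The count of lower genes was 5 without NTG_TRF_309 and 1 without NTG_TRF_326 or TG_TRF_315.

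Within single groups, few receptor genes passed between ZT12 and ZT0. In TG mice on TRF 2 passed, against 3.55% of all genes. Gabrr2 had 85.5 to 234.2 normalized counts at ZT12 (n = 5), against 14.2 to 81.0 at ZT0 (n = 6), with no overlap, a log2 difference of 2.14 ± 0.39 (adjusted p = 0.000295, limma). Grik2 had 1813 to 2498 at ZT12, against 2360 to 3487 at ZT0, a log2 difference of −0.37 ± 0.10 (adjusted p = 0.0273, limma). The groups of Grik2 overlapped, and leaving out TG_TRF_323, TG_TRF_321, TG_TRF_7 or TG_TRF_104 ended its call. The count was 4 without NTG_ALF_107, TG_TRF_129 or TG_TRF_220 and 5 without TG_TRF_24. None of the 36 passed in TG on ALF (2.22% of all genes), NTG on TRF (0.596%) or NTG on ALF (2.17%), with 0 by voom. In these groups 6, 3 and 3 of the 36 had an unadjusted p under 0.05 (limma), against 18.1%, 8.58% and 18.8% of all genes. Gabrr2 had log2 differences of 1.05 ± 0.37 in TG on ALF, 0.65 ± 0.37 in NTG on TRF and 1.05 ± 0.36 in NTG on ALF. The difference of the Gabrr2 change between TG and NTG on TRF was 1.49 ± 0.54, and between TRF and ALF in TG 1.09 ± 0.54, and neither passed (adjusted p = 1, limma, with unadjusted p = 0.00794 and 0.0493). No gene in the table passed in those comparisons of change (0% of 14260).

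Lists of associated genes, chosen by function with earlier results of these data known, were read beside the receptors. Of 43 glutamate receptor partners (auxiliary subunits, scaffolds and secreted binders), 15 were lower (34.9%) and 1 higher (2.33%) at ZT12 than at ZT0, against 13.6% and 14.4% of all genes, with a median log2 difference of −0.05 against 0.003 over all genes. Homer1, whose scaffold ties group I metabotropic receptors to calcium stores, averaged 3491 ± 391 normalized counts at ZT12, against 4349 ± 631 at ZT0, a difference of −0.31 ± 0.05 (adjusted p = 1.56e-06, limma). Nptx1, a secreted pentraxin that clusters AMPA receptors, had −0.27 ± 0.05, and Cacng4, an AMPA auxiliary subunit, had −0.33 ± 0.07. Cnih3, another AMPA auxiliary subunit, was higher at 0.23 ± 0.05 (2956 ± 356 at ZT12, against 2520 ± 259 at ZT0). The count of lower partners was 7 without the 5 libraries of lowest correlation and 7 with the transcript length covariate.

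Of 24 GABA receptor partners, 4 were lower (16.7%, near the 13.6% of all genes) and 1 higher (4.17%, against 14.4% of all genes). Mdga1, whose protein binds neuroligin 2 at inhibitory synapses, averaged 1688 ± 265 at ZT12, against 2381 ± 381 at ZT0, a difference of −0.50 ± 0.06 (adjusted p = 1.46e-09, limma). Kctd12b had −0.27 ± 0.06, Shisa7, an auxiliary subunit of GABA-A receptors, −0.16 ± 0.05 and Kctd12, an auxiliary subunit of GABA-B receptors, −0.10 ± 0.04. Gphn, which encodes the inhibitory scaffold gephyrin, was higher at 0.12 ± 0.03 (adjusted p = 0.00527, limma). Of 19 transporter and enzyme genes of both transmitters, 3 were lower (15.8%) and 0 higher (limma; 0 by voom): the glial glutamate transporter gene Slc1a2 at −0.17, the GABA transporter gene Slc6a13 at −0.57 and the glutamine transporter gene Slc38a1 at −0.17. Those 3 calls ended without the 5 libraries of lowest correlation. No gene of the 3 lists passed in a comparison of genotype or feeding.

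The comparison of TG with NTG asks whether receptor transcripts differ in the amyloid model. None of the 36 passed on TRF (0.133% of all genes) or on ALF (0.189%) by limma, and 0 each by voom. An unadjusted p under 0.05 was found for 5 of the 36 on TRF and 3 on ALF (limma), against 6.94% and 7.3% of all genes. With array weights, or on ALF without TG_ALF_109, the count past the adjusted threshold was 1. Of the 36 differences, 32 were negative on TRF (median −0.07) and 26 on ALF (median −0.02), against 49.5% and 51.2% of all genes. The genes of smallest p on TRF were Grin2c, Gabrg3 at −0.34 ± 0.13 (adjusted p = 0.587, limma) and Grm3 at −0.25 ± 0.10 (adjusted p = 0.664, limma). On ALF they were Grin2c, Grm2 at −0.20 ± 0.07 (adjusted p = 0.467, limma) and Gabra5 at −0.15 ± 0.07 (adjusted p = 0.631, limma).

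Grin2c had the smallest p under both schedules. On TRF it had 1225 to 2177 normalized counts in TG mice (median 1658, n = 18), against 1529 to 2596 in NTG mice (median 1969, n = 16). There 16 of 18 TG mice were below the NTG median and 4 of 18 below every NTG mouse. On ALF it had 1147 to 2404 in TG mice (median 1765, n = 19), against 1814 to 2932 in NTG mice (median 1974, n = 16). There 15 of 19 TG mice were below the NTG median and 12 of 19 below every NTG mouse. These ranges pool the 4 times, which were unevenly filled. At ZT6, where Grin2c was low, there were 4 TG mice and 1 NTG mouse on ALF, and 4 and 2 on TRF. The log2 difference was −0.25 ± 0.07 on TRF and −0.25 ± 0.07 on ALF, and neither passed (adjusted p = 0.13 and 0.102, limma). Averaged over both schedules, a test chosen after this was seen on the same mice, it was −0.25 ± 0.05 (adjusted p = 0.00079, limma, with 0.449% of all genes past the threshold). The adjusted p of that average was 3.49e-05 to 0.0524 (limma) over the 13 alternatives run for it, against 14 run for each schedule alone. The average did not pass with mice of ZT0 and ZT12 alone (0.0524). Of 12 astrocyte markers, 9 were negative in TG against NTG on TRF (median −0.08, 0 past the threshold by limma) and 12 on ALF (median −0.15, with Acsbg1 past it at −0.19), and their summed level was 167904 to 250251 in TG on TRF and 183612 to 272111 in TG on ALF, against 198198 to 275403 in NTG on TRF and 208567 to 305166 in NTG on ALF. Gfap, the defining marker of reactive astrocytes, had −0.07 on TRF and −0.01 on ALF. Their part in the Grin2c difference was not tested.

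The comparison of TRF with ALF asks whether the schedule moves receptor transcripts. In TG mice none of the 36 passed (0.54% of all genes), with 0 by voom. An unadjusted p under 0.05 was found for 4 of the 36 (limma), against 17.1% of all genes. The genes of smallest p were Grm3 at −0.24 ± 0.10 (adjusted p = 0.218, limma), Gabrg3 at −0.27 ± 0.12 and Grin3a at −0.20 ± 0.09. Gabrg3, for example, had 69.4 to 307.8 normalized counts in TG on TRF (median 141.8), against 117.5 to 229.4 in TG on ALF (median 174.8), so the TRF range held the whole ALF range. In NTG mice none passed (0.0281% of all genes), with 0 by voom. Only 1 of the 36 had an unadjusted p under 0.05 (limma), against 7.47% of all genes. The smallest p belonged to Gabrr2 at 0.49 ± 0.24 (adjusted p = 0.659, limma). That gene had 14.3 to 133.9 counts in NTG on TRF (median 71.5), against 6.22 to 105.8 in NTG on ALF (median 49.6). Grik1, at 0.14 ± 0.07, and Grm3, at −0.17 ± 0.11, came next. The interaction of genotype with feeding was 0 of 36 (0% of all genes), with 0 by voom and with Gabrg3 at −0.44 ± 0.18 (adjusted p = 0.929, limma). For the interaction 2 of the 36 had an unadjusted p under 0.05 (limma), against 5.22% of all genes. The TRF and ALF comparisons of TG and of NTG share mice with the genotype comparisons. For the genes of low spread the intervals were narrow: for Gria1 the 95% interval of TRF minus ALF in TG was −0.13 to 0.08 on the log2 scale and of TG minus NTG on ALF −0.13 to 0.09.

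**Figure D5:**
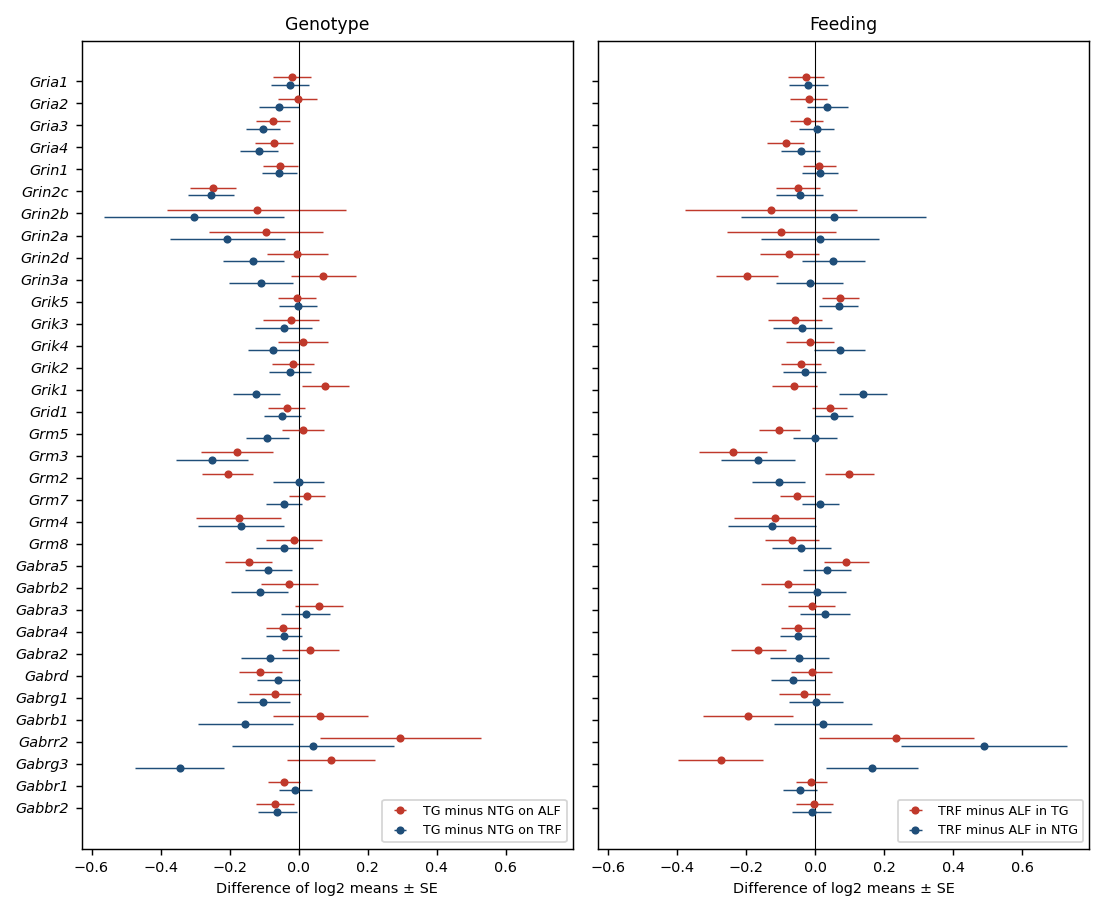
Difference of log2 means ± SE for each of 34 receptor genes, TG minus NTG on ALF and on TRF (left) and TRF minus ALF in TG and in NTG (right), all with 16 to 19 mice a group. No gene passed the threshold, and Grin2c lies at −0.25 under both schedules in the genotype panel.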

How the data were processed

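Total RNA of the hippocampus from 1 hemibrain of each mouse was enriched for poly-A, sequenced as paired reads on an Illumina NovaSeq and trimmed with Trimmomatic, per the labels' protocols. HISAT2, featureCounts, DESeq2 and GRCm38 are named in the submitters' processing notes, without settings, strand or annotation. The deposited values are an expression signal per gene, whole multiples within each library of a step that the authors' scaling set. The unit was the mouse. Library 232R was taken for a repeat of animal 232 and averaged with it, a reading for which no label speaks.

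Values were tested as log2(value + 1) with limma 3.58.1 (trend, robust) in R 4.3.3. The model held 4 group means and time of sacrifice. A model with a mean for each group and time gave the within-group contrasts. Genes needed a mean of at least 10, which removed 0 of 14260. A fold change on this scale understates that of low genes. P-values were adjusted over all genes by the Benjamini-Hochberg method, with a threshold of 0.05. The model was tested on simulated data. Exon lengths and positions came from GENCODE for GRCm38, found for 13699 genes (96.1%), and promoters from RefSeq on GRCm38.p6.

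Fits used all listed genes; 6 of the 42 rows are not reported here. The receptor genes and all lists were chosen with earlier results of these data known. Genes were named by a rule: all that passed when 12 or fewer did, else the 8 of largest change in each direction, the 3 of smallest p where none passed, the 8 of smallest p over 4 times, principal subunits, and extremes of level and spread. Alternatives were other pseudocounts, filters, scaling, weights, tissue covariates, subsets of libraries and leave-one-out. The labels give no batch or sex of a sample, so neither was modelled. The separate series of animal numbers at ZT6 and ZT18 was not modelled either.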

Additional observations from a re-analysis of the deposited data

Results flagged for a closer look

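In groups of 4 to 10 mice, the highest or lowest mouse stood apart from the others by Dixon's criterion in 7 of 70 sets, and chance gives about 1 in 20. At ZT18, over all 10 mice, the mouse NTG_ALF_325 had 29561.7 normalized counts of Gria2 and 9649.2 of Grm5, both the lowest, and 2515.9 of Grin2c, the highest. Among TG mice on ALF at ZT12, TG_ALF_109 had the highest Gabra5, 6914.5, and among NTG mice on ALF at ZT12 NTG_ALF_322 did, with 9568.6. NTG_TRF_10 had 133.9 counts of Gabrr2, the highest of NTG mice on TRF at ZT12. NTG_ALF_1, among the 5 libraries of lowest correlation, had 2931.9 of Grin2c, the highest of NTG mice on ALF at ZT0.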

How the results depend on the processing

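Of 789 results of named genes under the alternatives other than leave-one-out, 761 kept their direction and side of the threshold, 19 no longer passed, 6 newly passed and 3 changed sign. The sign changed between ZT18 and ZT6 for Gria2 (0.02) with array weights and for Grin1 (0.001) and Gabbr2 (0.001) with the transcript length covariate. None of these passed in any setting, and the cause was not tested. Between ZT12 and ZT0, leaving out the 5 libraries of lowest correlation gave 1 lower receptor gene, 7 lower and 2 higher glutamate partners, 2 higher GABA partners and 0 lower transporters or enzymes. The length covariate gave 1 lower receptor gene, 7 lower and 2 higher glutamate partners, 3 higher GABA partners, and 1 higher and 1 lower transporter or enzyme. Array weights gave 2 higher glutamate partners and 1 lower transporter or enzyme. Between ZT18 and ZT6, 5 were lower without the 5 libraries and 6 with the length covariate. Array weights gave 1 receptor gene (Grin2c) in TG against NTG on TRF and 1 on ALF. Within TG on TRF the count between ZT12 and ZT0 was 1 with a mean of at least 200, without the 5 libraries or with the dentate gyrus covariate and 5 with the myelin covariate. Leaving out each mouse in turn gave 4 to 10 lower receptor genes between ZT12 and ZT0, 1 to 5 lower between ZT18 and ZT6, 10 to 16 over the 4 times, 0 to 1 for TG against NTG on ALF, and, between ZT12 and ZT0, 1 to 5 within TG on TRF. The filter removed no gene, so the fit with none was identical. A quasi-likelihood count model was not run, since low values did not show in most libraries that a step is 1 read. The voom fits were made on whole multiples of that step, so they take a step as 1 read and share this limit. No paired analysis was possible because groups share no replicate numbers. Gabrr2 had the fewest counts, down to 6.22 normalized counts in a mouse, which limits its precision.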
